A study of Mus musculus with 6 samples.

Results

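A set of 10 genes of the striated muscle sarcomere and its energy supply was followed in RNA sequencing libraries of mouse aorta. The levels of these genes were taken as a possible sign of skeletal or heart muscle. Which cells made the transcripts was not tested. The genes were found by their gene symbols among the 29752 genes of each library, and all 10 were present. The skeletal members were Acta1, Ckm, Tnnt3, Myh4, Myh1 and Myl1 (6 genes), and the cardiac members were Actc1, Tnnt2, Myl7 and Myh6 (4 genes). The libraries came from aortas of C57BL/6 mice aged 15 weeks that had eaten a normal diet since they were 8 weeks old, for 7 weeks. The 3 PALMD+/- libraries came from mice heterozygous for Palmd, which encodes palmdelphin, and the 3 wild type libraries came from mice of the same strain, age and diet. The labels describe neither the altered allele nor how the aortas were cleaned of neighbouring tissue. They do not tie libraries to animals either, and p-values therefore measure only how these samples vary, which may be technical.

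Striated muscle contracts through sarcomeres, in which thick filaments of myosin slide along thin filaments of actin. Troponin on the thin filament makes the sliding depend on calcium, and creatine kinase restores the ATP that myosin consumes. The aortic wall contains smooth muscle, which has its own actin (Acta2) and myosin heavy chain (Myh11) and no sarcomeres. Skeletal muscle lies near the aorta in the body wall, heart muscle lies beside the aortic root, and in the mouse it also extends into the walls of large thoracic veins. Brown and white fat surround the vessel.

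The members were present at a small part of the level of smooth muscle transcripts in every library. Values are given in FPKM, that is reads scaled to gene length and sequencing depth, as calculated by the authors, and levels of different genes are compared only on this scale per length. Acta2 had 8012, 3701 and 8367 FPKM in PALMD+/- replicates 1 to 3, against 8235, 7252 and 5866 FPKM in wild type replicates 1 to 3. Actc1, the highest member on average, stood between 0.0715% and 0.292% of the Acta2 level of its own library, and Acta1 between 0.00712% and 0.0277%. Of the 10 members, 5 (Ckm, Myh4, Myh1, Myl7 and Myh6) were under 1 FPKM in all 6 libraries. In tissue libraries of this kind fewer cells of a type and less RNA per cell cannot be told apart.

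No member passed the test for a difference between PALMD+/- and wild type. The test was limma on log2(FPKM + 1) with Benjamini-Hochberg adjustment, run on the 12620 genes that reached 1 FPKM in 3 or more libraries. Only 4 members met that filter (Acta1, Tnnt3, Myl1 and Actc1), and 6 did not. Among the 4, 0 had an adjusted p under 0.05, against 0 of all 12620 tested genes (0%), and 0 had an unadjusted p under 0.05, against 6.50% of all tested genes. The PALMD+/- and wild type libraries overlapped for all 10 members, where they were apart for 10.1% of the 27132 genes with a value above 0 in any library and for 12.9% of the tested genes. The mean log2 level was lower in PALMD+/- for 7 members and higher for 3, where it was lower for 42.4% of the same 27132 genes. For Ckm, Myh4, Myh1, Myl1, Tnnt2 and Myl7 the difference lay between -0.0250 and 0.00104, so their direction says little.

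**Figure D1:**
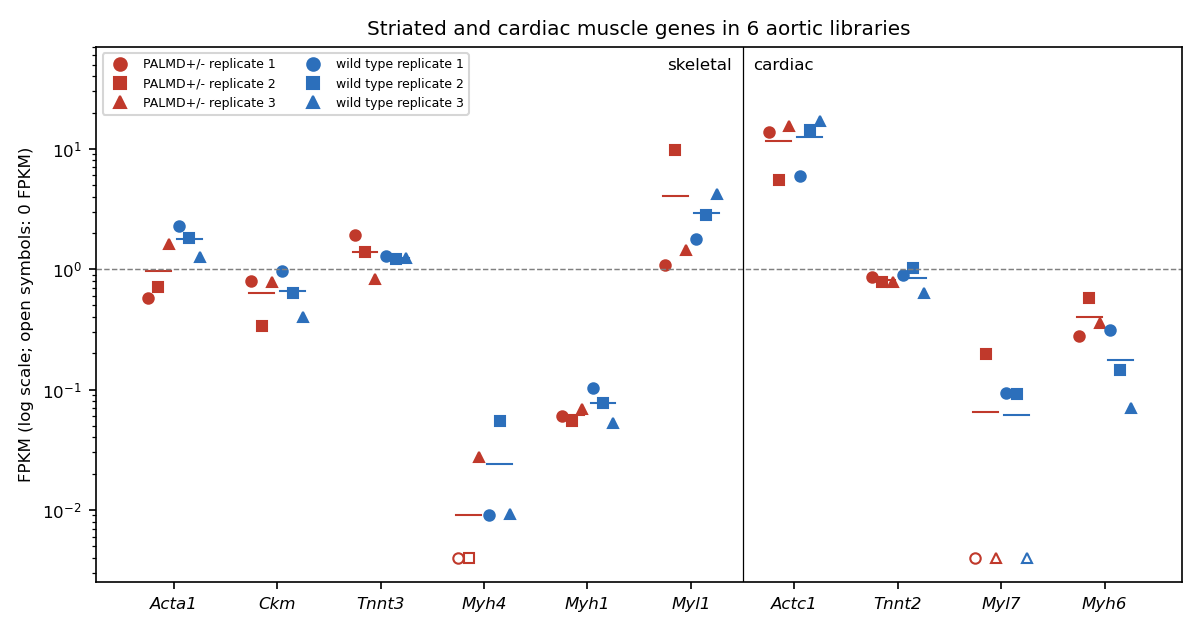
FPKM on a log axis of the 6 skeletal and the 4 cardiac members in each library, with PALMD+/- in red to the left of wild type in blue, a symbol shape for each replicate, and a bar at the mean of 3 libraries. Open symbols stand for 0 FPKM and are drawn at 0.004, and the dashed line marks 1 FPKM. The groups overlap for every member, and Myl1 ranges from 1.08 to 9.68 FPKM within PALMD+/-.

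The thin filament actins were the members whose identity most needs to be separated from the smooth muscle actin. Acta1 encodes skeletal alpha-actin, Actc1 cardiac alpha-actin and Acta2 smooth muscle alpha-actin. The first 60 coding bases of each are shown, because they show how many positions can tell a read of a rare actin from one of Acta2. They come from the GENCODE release M21 transcripts (GRCm38), and capitals mark bases that differ from Acta2 at the same position.
Acta1: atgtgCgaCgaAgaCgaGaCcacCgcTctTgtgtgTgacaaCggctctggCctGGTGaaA
Actc1: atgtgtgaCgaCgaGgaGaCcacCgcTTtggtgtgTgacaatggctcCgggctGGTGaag
Acta2: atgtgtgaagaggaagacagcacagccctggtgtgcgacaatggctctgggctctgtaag
Acta1 differed from Acta2 at 17 of these 60 positions and Actc1 at 14. Over the whole coding sequence of 1134 bases, Acta1 had the same base as Acta2 at 85.4% of positions, and the longest identical run was 29 bases. Actc1 had the same base as Acta2 at 82.5% of positions, with a longest identical run of 23 bases. Of all stretches of 50 bases in the longest coding transcript of Acta1, 2.22% occurred exactly in a transcript of another gene, among them the cytoplasmic actin Actb, and none in Acta2. For Actc1 the share was 0%. Actb had 447 to 770 FPKM in the 6 libraries, so reads in the stretches it shares with Acta1 may not be unique to Acta1. The part of such reads in the Acta1 level was not tested.

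Acta1 (GRCm38 chromosome 8, 123891769 to 123894751, minus strand) had 0.570, 0.716 and 1.60 FPKM in PALMD+/- replicates 1 to 3, against 2.28, 1.81 and 1.27 FPKM in wild type replicates 1 to 3. Replicates 1 and 2 of PALMD+/- were below every wild type library, while PALMD+/- replicate 3 lay above wild type replicate 3, so the groups overlapped. These levels rest on 16, 19 and 45 reads in PALMD+/- and 64, 51 and 35 reads in wild type. The means were 0.963 ± 0.560 FPKM in PALMD+/- and 1.78 ± 0.508 FPKM in wild type (SD, n = 3 each). The log2 difference was -0.52 on the log2(FPKM + 1) scale (SE 0.24, 95% interval -1.09 to 0.04), with a limma adjusted p of 0.774. An exact permutation test (two-sided, smallest possible p 0.1 for 3 libraries against 3) gave p = 0.2. On this scale the difference of a gene near 1 FPKM is understated, and with limma voom on the recovered reads it was -0.98 (adjusted p = 0.752, with a range of 0.468 to 1.00 over all alternatives). Acta1 had the lowest unadjusted limma p of the 4 tested members, at 0.0642.

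Actc1 (chromosome 2, 114047282 to 114053548, minus strand) had 13.7, 5.47 and 15.4 FPKM in PALMD+/- replicates 1 to 3, against 5.88, 14.2 and 17.1 FPKM in wild type replicates 1 to 3. Each group held 1 low library and 2 high ones, PALMD+/- replicate 2 and wild type replicate 1 being the low ones. Its reads numbered 405, 153 and 456 in PALMD+/- and 174, 422 and 499 in wild type, so counting error is small beside the spread between libraries. The means were 11.5 ± 5.32 FPKM in PALMD+/- and 12.4 ± 5.83 FPKM in wild type (SD, n = 3 each). The log2 difference was -0.09 (SE 0.48, 95% interval -1.25 to 1.07, limma adjusted p = 0.991, exact permutation p = 0.7). Without PALMD+/- replicate 2 the difference was 0.33, and without wild type replicate 1 it was -0.52. PALMD+/- replicate 2 was also the lowest library for Acta2, whereas wild type replicate 1 was not low for Acta2, so the ratio of Actc1 to Acta2 was 0.148% in PALMD+/- replicate 2 and 0.0715% in wild type replicate 1.

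The windows before the start of both actin genes hold the letters of a CArG box, the motif known for binding serum response factor, as do those of Myh4 and Myl7. The 300 bases around the RefSeq start (250 before and 50 after it) are shown for these 4 members. They are the ones with an exact match to this motif. Sequences are those of RefSeq on GRCm38.p6, written along the gene, and capitals mark the CArG box.
Acta1 promoter, chr8:123894726-123895025, minus strand: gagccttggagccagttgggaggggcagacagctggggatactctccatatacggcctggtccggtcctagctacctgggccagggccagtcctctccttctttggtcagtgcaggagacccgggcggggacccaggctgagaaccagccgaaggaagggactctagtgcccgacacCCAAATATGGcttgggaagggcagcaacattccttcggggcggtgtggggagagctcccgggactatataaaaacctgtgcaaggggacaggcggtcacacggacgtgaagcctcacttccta
Actc1 promoter, chr2:114052826-114053125, minus strand: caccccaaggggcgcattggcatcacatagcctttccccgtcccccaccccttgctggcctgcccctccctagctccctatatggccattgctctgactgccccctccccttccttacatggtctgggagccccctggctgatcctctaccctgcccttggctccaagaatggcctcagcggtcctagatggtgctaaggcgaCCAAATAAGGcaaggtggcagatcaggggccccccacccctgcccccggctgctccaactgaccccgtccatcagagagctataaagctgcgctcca
Myh4 promoter, chr11:67237562-67237861, plus strand: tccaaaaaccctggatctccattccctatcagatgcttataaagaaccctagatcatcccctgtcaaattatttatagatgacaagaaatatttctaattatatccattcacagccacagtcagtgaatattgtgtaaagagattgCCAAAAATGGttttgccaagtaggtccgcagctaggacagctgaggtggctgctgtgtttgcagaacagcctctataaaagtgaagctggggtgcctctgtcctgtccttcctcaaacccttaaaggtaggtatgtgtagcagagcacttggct
Myl7 promoter, chr11:5898733-5899032, minus strand: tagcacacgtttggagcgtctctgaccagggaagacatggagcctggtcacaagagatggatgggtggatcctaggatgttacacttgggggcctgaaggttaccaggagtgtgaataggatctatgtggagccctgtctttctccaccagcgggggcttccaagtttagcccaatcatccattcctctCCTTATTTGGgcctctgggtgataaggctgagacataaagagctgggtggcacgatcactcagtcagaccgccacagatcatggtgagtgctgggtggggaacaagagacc
The box starts 73 bases before the start of Acta1, 47 before Actc1, 104 before Myh4 and 61 before Myl7. Promoter windows were matched for 9 of the 10 members, all but Tnnt3. The CArG box was read on both strands as the exact letters CCWWWWWWGG, where W is A or T. It was in the windows of 4 of these 9 members, that is 4 of their 10 windows, and in 1.63% of 32851 windows of all genes. The Acta2 window held no exact match, but its stretches ccctatatgg and ccttgtttgg each differ from those letters at a single base. Near matches were not counted in any window. The E-box CANNTG reads the same way on both strands and is the motif of the myogenic regulators. It was in 8 of the 9 members (9 of 10 windows) and in 72.3% of all windows. The MEF2 site, again on both strands, was in Myh1 and Myh4 (2 of 10 windows) and in 3.19% of all windows. These matches describe the letters only. The 4 members with a CArG box were not alike in level, with Actc1 the highest member and Myh4 and Myl7 at no more than a few reads per library.

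The thin filament regulators Tnnt3 and Tnnt2 had levels that overlapped between the groups. Tnnt3 encodes the troponin T of fast skeletal fibres, which ties the troponin complex to tropomyosin (chromosome 7, 142498836 to 142516009). It had 1.94, 1.39 and 0.830 FPKM in PALMD+/- replicates 1 to 3, against 1.28, 1.20 and 1.23 FPKM in wild type replicates 1 to 3. The wild type libraries lay close together, and the PALMD+/- libraries fell on both sides of them. The means were 1.39 ± 0.554 FPKM in PALMD+/- and 1.24 ± 0.0385 FPKM in wild type (SD, n = 3 each). The log2 difference was 0.07 (SE 0.18, 95% interval -0.37 to 0.51, limma adjusted p = 0.979, exact permutation p = 0.7).

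Tnnt2 encodes the troponin T of heart muscle (chromosome 1, 135836354 to 135852260). It had 0.862, 0.784 and 0.777 FPKM in PALMD+/- replicates 1 to 3, against 0.889, 1.02 and 0.630 FPKM in replicates 1 to 3 of wild type, and the PALMD+/- libraries lay within the wild type range. Behind these levels were 122, 105 and 110 reads in PALMD+/- and 126, 145 and 88 reads in wild type. The means were 0.808 ± 0.0472 FPKM in PALMD+/- and 0.846 ± 0.197 FPKM in wild type (SD, n = 3 each), with an exact permutation p of 0.9. The gene length that makes the reads whole, 7752 bases of exons, is the union over all its transcripts, whereas its longest coding transcript has 1200 bases. A level per length of Tnnt2 is therefore low for its reads, and Tnnt2 had more reads than Acta1 in every library although its mean FPKM was lower in both groups.

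The myosin light chains differed in how far their libraries spread. Myl1 encodes the essential light chain of fast skeletal myosin (chromosome 1, 66924295 to 66945404, minus strand). It had 1.08, 9.68 and 1.45 FPKM in PALMD+/- replicates 1 to 3, against 1.79, 2.81 and 4.23 FPKM in wild type replicates 1 to 3. PALMD+/- replicate 2 was the highest library and the other PALMD+/- libraries were the lowest, so that the wild type libraries lay between them. Its reads numbered 41, 347 and 55 in PALMD+/- and 68, 107 and 158 in wild type. The means were 4.07 ± 4.86 FPKM in PALMD+/- and 2.94 ± 1.22 FPKM in wild type (SD, n = 3 each). The log2 difference was -0.01 (SE 0.63, 95% interval -1.52 to 1.51, limma adjusted p = 1.00, exact permutation p = 1). Without PALMD+/- replicate 2 it was -0.76 (limma adjusted p = 0.322, with a range of 0.322 to 1.00 over all alternatives).

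The order of the libraries for Myl1 was shared by 0 of the other members and 0 of the 21 other tested striated muscle genes. It was the order of Adipoq, the fat hormone adiponectin, which had 85.3, 325 and 122 FPKM in PALMD+/- replicates 1 to 3, against 133, 187 and 299 FPKM in wild type replicates 1 to 3. Cidec, a protein of the lipid droplet, had the same order, at 118, 397 and 151 FPKM in PALMD+/- and 152, 285 and 377 FPKM in wild type. Kdr, a receptor for vascular endothelial growth factor from the endothelial list, had it too, at 3.43, 14.6 and 3.95 FPKM in PALMD+/- and 4.82, 5.30 and 5.42 FPKM in wild type. The order was thus that of 2 of the 7 white fat genes, 1 of the 5 endothelial genes and 0 brown fat genes, and 259 of the 12619 other tested genes (2.05%) shared it. The comparison with these genes was chosen after the values were seen, and the part of fat in the Myl1 level was not tested. Of all 50-base stretches of the Myl1 transcript, 23.4% also occurred in the pseudogene Mylf-ps, so reads there may not be unique to Myl1.

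**Figure D2:**
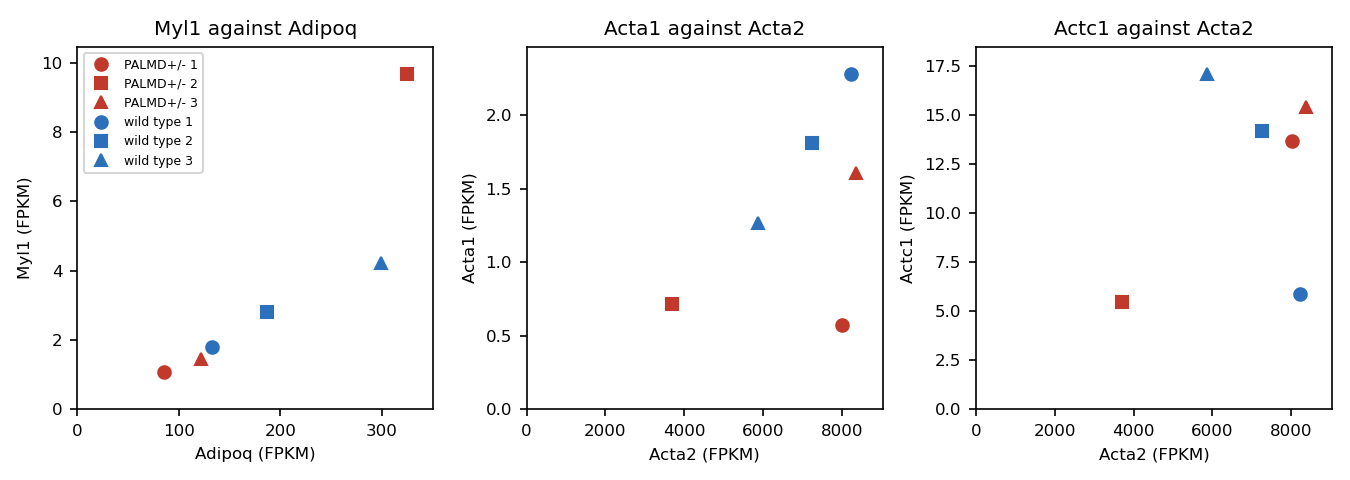
Levels in FPKM of Myl1 against Adipoq, Acta1 against Acta2 and Actc1 against Acta2, with 1 symbol per library, PALMD+/- in red and wild type in blue. Myl1 and Adipoq put the 6 libraries in the same order, with PALMD+/- replicate 2 highest at 9.68 and 325 FPKM, while wild type replicate 1 combines a low Actc1 level (5.88 FPKM) with a high Acta2 level (8235 FPKM).

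Myl7 encodes the regulatory light chain of atrial myosin (chromosome 11, 5896637 to 5898782, minus strand). It had 0, 0.196 and 0 FPKM in PALMD+/- replicates 1 to 3, against 0.0927, 0.0923 and 0 FPKM in wild type replicates 1 to 3, which are 2 reads in PALMD+/- and 2 reads in wild type. In the libraries at 0 a level of up to 0.278 FPKM (PALMD+/- replicates 1 and 3) and 0.282 FPKM (wild type replicate 3) remained possible, taking 3 reads as the limit of a count of 0. Every library was under the level of 3 reads, and no fold is given. Myl7 was thus at the edge of detection in both groups, whereas Myl4, the atrial essential light chain, had 34 to 81 reads per library.

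The myosin heavy chains, the motor of the thick filament, were the least abundant skeletal members. Myh1 encodes the heavy chain of fast 2X fibres (chromosome 11, 67200052 to 67224575). It had 0.0603, 0.0546 and 0.0689 FPKM in PALMD+/- replicates 1 to 3, against 0.103, 0.0771 and 0.0524 FPKM in replicates 1 to 3 of wild type, and wild type replicate 3 was the lowest library. The reads were 7, 6 and 8 in PALMD+/- and 12, 9 and 6 in wild type. Summed over libraries, 21 reads in PALMD+/- and 27 in wild type gave a ratio of 0.778 with an exact counting interval from 0.418 to 1.43. The exact permutation p was 0.4.

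Myh4 encodes the heavy chain of the fastest fibres, type 2B (chromosome 11, 67238029 to 67260446). It had 0, 0 and 3 reads in PALMD+/- replicates 1 to 3, against 1, 6 and 1 reads in wild type replicates 1 to 3. In FPKM these were 0, 0 and 0.0273 in PALMD+/- and 0.00910, 0.0543 and 0.00923 in wild type, and a count of 0 allows up to 0.0273 FPKM in PALMD+/- replicate 1 and 0.0289 FPKM in PALMD+/- replicate 2. The groups overlapped, and the ratio of the summed reads, 3 in PALMD+/- to 8 in wild type, was 0.375 with a counting interval from 0.0641 to 1.56 (exact permutation p = 0.5). These intervals cover counting error only. Of the 50-base stretches of Myh4, 18.9% occurred in other genes on either strand, with Myh1, Myh2 and Myh8 sharing the most. For Myh1 the share was 32.1%, with Myh2, Myh4 and Myh8 sharing the most, so single reads may belong to a neighbouring heavy chain. The antisense gene Myhas also overlaps 8.11% of the exon bases of Myh1.

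Myh6 encodes the alpha heavy chain of heart muscle, the main form in the adult mouse heart (chromosome 14, 54941921 to 54966927, minus strand). It had 0.276, 0.574 and 0.354 FPKM in PALMD+/- replicates 1 to 3, against 0.310, 0.146 and 0.0700 FPKM in wild type replicates 1 to 3. Replicates 2 and 3 of PALMD+/- were above every wild type library, while PALMD+/- replicate 1 lay below wild type replicate 1. The means were 0.401 ± 0.155 FPKM in PALMD+/- and 0.175 ± 0.123 FPKM in wild type (SD, n = 3 each). The difference on the log2(FPKM + 1) scale was 0.25, with an exact permutation p of 0.2, and with a pseudocount of 0.1 in place of 1 it was 0.92. It was the cardiac member with the lowest exact p. Of its 50-base stretches 22.6% occurred elsewhere, for example in Myh7, the beta heavy chain, which was at or below 0.0674 FPKM in every library.

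Ckm, the muscle creatine kinase, stands for the energy supply of the skeletal fibre (chromosome 7, 19404776 to 19422841). It had 0.790, 0.338 and 0.789 FPKM in PALMD+/- replicates 1 to 3, against 0.958, 0.635 and 0.400 FPKM in wild type replicates 1 to 3. The lowest library of all was PALMD+/- replicate 2, and the groups overlapped almost completely. The reads were 42, 17 and 42 in PALMD+/- and 51, 34 and 21 in wild type. The means were 0.639 ± 0.261 FPKM in PALMD+/- and 0.665 ± 0.280 FPKM in wild type (SD, n = 3 each), with an exact permutation p of 1. An antisense gene, A930016O22Rik, overlaps 15.5% of the exon bases of Ckm and was at or below 0.108 FPKM in every library, and without strand its reads cannot be told from those of Ckm.

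Summed over the 6 skeletal members, the levels were 4.44, 12.2 and 4.77 FPKM in PALMD+/- replicates 1 to 3, against 6.42, 6.59 and 7.19 FPKM in wild type replicates 1 to 3. The high value of PALMD+/- replicate 2 was carried by Myl1. Without Myl1 the sums were 3.36, 2.50 and 3.32 FPKM in PALMD+/- and 4.63, 3.78 and 2.95 FPKM in wild type, and PALMD+/- replicate 2 was then the lowest library. The cardiac members summed to 14.8, 7.03 and 16.6 FPKM in PALMD+/- and 7.18, 15.5 and 17.8 FPKM in wild type, nearly all of it Actc1. This sum therefore mostly describes Actc1, and the cells that made it were not tested. Without Actc1 the cardiac sums were 1.14, 1.55 and 1.13 FPKM in PALMD+/- and 1.29, 1.26 and 0.700 FPKM in wild type. With Myl1 and Actc1 set aside, different libraries were highest for the skeletal and the cardiac members. The library with the highest skeletal sum was then wild type replicate 1, and that with the highest cardiac sum was PALMD+/- replicate 2.

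One library differed most from the others, PALMD+/- replicate 2, with an average correlation over genes of 0.930, while that of the 5 others was 0.960 to 0.971. Its 11 smooth muscle genes summed to 6220 FPKM, against 8747 to 13165 FPKM elsewhere, and it was the lowest library for all 11 of them. Endothelial genes summed to 199 FPKM in it and to between 622 and 701 FPKM elsewhere, with Pecam1, Cdh5, Tie1 and Vwf lowest in it and Kdr highest. White fat genes summed to 4495 FPKM in it, against 1319 to 3362 FPKM elsewhere, and Schwann cell genes to 59.3 FPKM against 7.33 to 14.4 FPKM. Fibroblast genes summed to 737 FPKM in it, against 790 to 1126 FPKM elsewhere. Brown fat genes summed to 92.0, 1327 and 314 FPKM in PALMD+/- replicates 1 to 3, against 268, 1146 and 883 FPKM in wild type replicates 1 to 3. PALMD+/- replicate 2 was the highest library for 3 members and the lowest for 2. It was also the lowest library for 12 of the 21 other tested striated muscle genes. The part of these cell types in the levels of the members and of those genes was not tested. Depth was inferred from the smallest common step of FPKM times exon length, taken as 1 read. It was nearly equal, from 17283951 to 18372131 reads, and for a gene of 2 kb a single read gave 0.0272 to 0.0289 FPKM. Palmd itself had 5.31, 7.19 and 6.21 FPKM in PALMD+/- replicates 1 to 3, against 5.49, 7.88 and 10.1 FPKM in replicates 1 to 3 of wild type, and the groups overlapped. The altered part of Palmd is not named in the labels, so this level does not check the genotype.

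The wider set of striated muscle genes was also mostly at low levels. Of 74 such genes written down in 6 lists, 72 were found and Bmp10 and Myf5 were not analysed here. Of the 72, 45 were under 1 FPKM in all 6 libraries and 24 were at or below 0.1 FPKM in all. The 5 other markers of fast skeletal muscle (Mylpf, Atp2a1, Tnni2, Tnnc2 and Pvalb) rested on few reads. Mylpf, the fast regulatory light chain, had 15, 24 and 22 reads in PALMD+/- replicates 1 to 3, against 13, 13 and 10 reads in wild type replicates 1 to 3, and all PALMD+/- libraries were above the wild type ones. Atp2a1, the calcium pump of fast fibres, had 16, 13 and 18 reads in PALMD+/- replicates 1 to 3, against 32, 29 and 4 reads in wild type replicates 1 to 3. These 2 genes thus stood in different order, and Atp2a1 overlapped between the groups. Tnni2, the fast troponin I, had 2, 1 and 5 reads in PALMD+/- replicates 1 to 3, against 4, 4 and 1 reads in wild type replicates 1 to 3. Tnnc2, the fast troponin C, had 0 reads in PALMD+/- and 1 read in wild type. Pvalb, the calcium buffer parvalbumin, had 2 reads in PALMD+/- and 2 in wild type. The myogenic regulators Myod1, Myog and Myf6 were at 0 in every library.

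The 4 other markers of heart muscle (Nppa, Mybpc3, Tnni3 and Myl4) lay between 0 and 1.83 FPKM. Nppa, the atrial natriuretic peptide, had 0 reads in PALMD+/- and 3 in wild type. Mybpc3, the cardiac myosin-binding protein C, had 3, 1 and 4 reads in PALMD+/- replicates 1 to 3, against 4, 1 and 1 reads in wild type replicates 1 to 3. Tnni3, the cardiac troponin I, had 1.83, 0.897 and 1.35 FPKM in PALMD+/- replicates 1 to 3, against 0.981, 0.818 and 0.781 FPKM in replicates 1 to 3 of wild type, and the groups overlapped. Myl4, the atrial essential light chain, lay between 0.586 and 0.956 FPKM in PALMD+/- and between 0.407 and 0.743 FPKM in wild type.

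**Figure D3:**
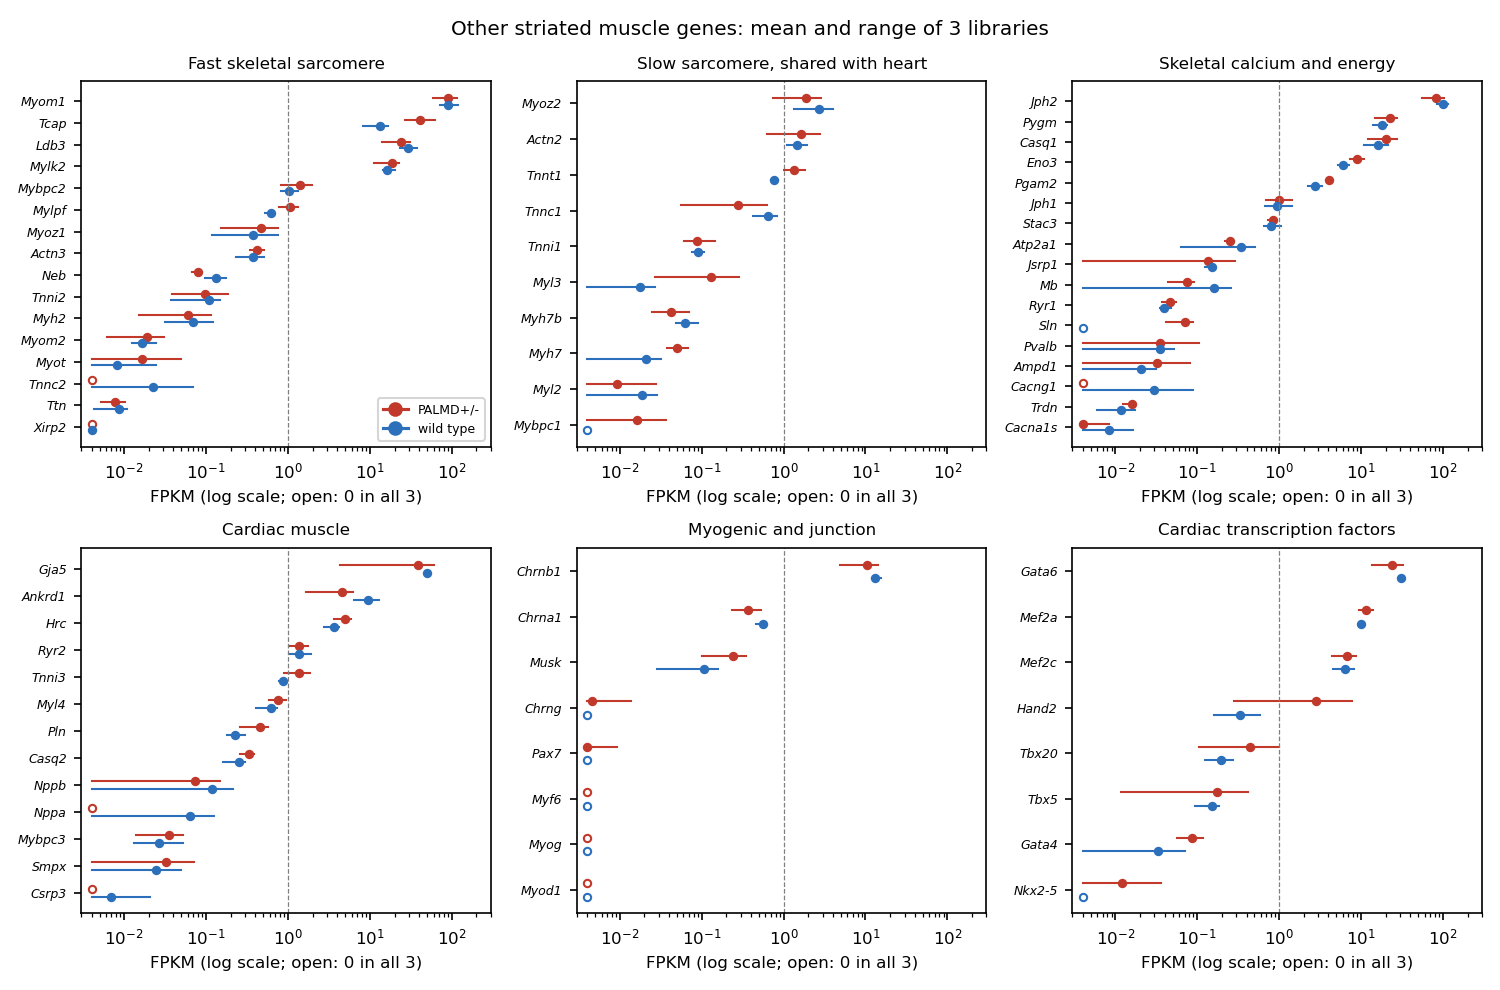
Mean (point) and range (line) in FPKM on a log axis of the other striated muscle genes in 3 PALMD+/- libraries (red, above) and 3 wild type libraries (blue, below), in the 6 lists. Values under 0.004 are drawn at 0.004, open points were 0 in all 3 libraries of the group, and the dashed line marks 1 FPKM, under which 45 of the 72 genes stayed in every library.

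Of the 72 genes 21 were tested, 12 higher and 9 lower in PALMD+/-, and 0 passed the threshold. Their median log2 difference was 0.07, where that of all tested genes was 0.01. All 3 PALMD+/- libraries were above all wild type libraries for 4 of the 21 (19.0%) and below them for 1 (4.76%), where the shares over all tested genes were 7.80% and 5.12%. The 4 higher ones also had an unadjusted limma p under 0.05 (19.0% of the 21, against 6.50% of all tested genes). Neither count is a test of the lists. The fast and slow sarcomere lists, the calcium and energy list and the 3 other lists had from 1 to 5 tested genes each.

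Tcap, the Z-disc protein telethonin, had the largest difference among these 21 genes. It had 62.7, 34.5 and 26.8 FPKM in PALMD+/- replicates 1 to 3, against 16.7, 14.5 and 8.20 FPKM in replicates 1 to 3 of wild type, and every PALMD+/- library was above every wild type one. The means were 41.3 ± 18.9 FPKM in PALMD+/- and 13.1 ± 4.42 FPKM in wild type (SD, n = 3 each), and the log2 difference was 1.55 (SE 0.37, limma adjusted p = 0.553). The members of the same sarcomere showed no such order, with Tnnt3 at 0.07 and Acta1 at -0.52. Nr1d1, a clock gene, had 87.7, 82.1 and 33.9 FPKM in PALMD+/- replicates 1 to 3, against 5.07, 5.93 and 7.58 FPKM in replicates 1 to 3 of wild type, and was named after its values were seen. The part of the time of day in the Tcap level was not tested.

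The other 3 genes above in every PALMD+/- library were Pgam2, Eno3 and Tnnt1. Pgam2, the muscle phosphoglycerate mutase, averaged 4.12 ± 0.257 FPKM in PALMD+/- and 2.77 ± 0.554 FPKM in wild type (SD, n = 3 each; log2 difference 0.45, limma adjusted p = 0.616). Eno3, the muscle enolase, averaged 8.99 ± 1.69 FPKM in PALMD+/- and 5.96 ± 1.08 FPKM in wild type (log2 difference 0.52, limma adjusted p = 0.656). Tnnt1, the slow skeletal troponin T, averaged 1.36 ± 0.408 FPKM in PALMD+/- and 0.756 ± 0.0878 FPKM in wild type (log2 difference 0.41, limma adjusted p = 0.731). Ankrd1, a stretch-responsive protein of the heart, was the gene below in every PALMD+/- library, at 5.99, 1.67 and 6.17 FPKM in PALMD+/- replicates 1 to 3, against 13.0, 8.73 and 6.48 FPKM in wild type replicates 1 to 3. Its log2 difference was -0.98 (limma adjusted p = 0.772) and -0.51 without PALMD+/- replicate 2.

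Several genes of the lists had levels far above the members, and their groups overlapped as well. Myom1, a protein of the M-band, averaged 90.7 ± 28.4 FPKM in PALMD+/- and 90.6 ± 24.0 FPKM in wild type (SD, n = 3 each). Jph2, a protein of the junction between the cell membrane and the calcium store, averaged 81.6 ± 24.5 FPKM in PALMD+/- and 100 ± 14.6 FPKM in wild type. Ldb3, a Z-disc protein, averaged 24.2 ± 8.86 FPKM in PALMD+/- and 29.6 ± 7.47 FPKM in wild type, and Pygm, the muscle glycogen phosphorylase, 22.9 ± 7.14 FPKM in PALMD+/- and 17.9 ± 3.48 FPKM in wild type. Gja5, the connexin of the atria and of arterial endothelium, had 51.3, 4.35 and 60.4 FPKM in PALMD+/- replicates 1 to 3, against 50.5, 47.3 and 50.4 FPKM in wild type replicates 1 to 3, with PALMD+/- replicate 2 low as it was for Pecam1, at 72.0 FPKM against 352 to 424 FPKM elsewhere.

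Further genes of the lists stood above 1 FPKM on average, and their groups overlapped too. Mylk2, the skeletal myosin light chain kinase, averaged 18.5 ± 6.34 FPKM in PALMD+/- and 16.3 ± 3.32 FPKM in wild type (SD, n = 3 each), and Casq1, the calcium buffer of the skeletal calcium store, 20.2 ± 7.78 FPKM in PALMD+/- and 16.0 ± 5.20 FPKM in wild type. Mybpc2, the fast myosin-binding protein C, averaged 1.40 ± 0.569 FPKM in PALMD+/- and 1.04 ± 0.260 FPKM in wild type. Among slow and shared genes, the Z-disc proteins Myoz2 and Actn2 averaged 1.88 ± 1.07 and 1.64 ± 1.09 FPKM in PALMD+/-, against 2.69 ± 1.35 and 1.45 ± 0.453 FPKM in wild type. Among cardiac genes, Hrc, a calcium-binding protein of the calcium store, averaged 4.95 ± 1.13 FPKM in PALMD+/- and 3.67 ± 0.822 FPKM in wild type. Ryr2, the cardiac calcium release channel, averaged 1.36 ± 0.370 FPKM in PALMD+/- and 1.38 ± 0.484 FPKM in wild type. The limma adjusted p of these 7 genes lay between 0.842 and 1.00.

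Tnnc1, the slow and cardiac troponin C, had 12, 1 and 3 reads in PALMD+/- replicates 1 to 3, against 13, 16 and 8 reads in wild type replicates 1 to 3. Of the subunits of the muscle acetylcholine receptor, Chrnb1 averaged 10.3 ± 4.90 FPKM in PALMD+/- and 13.2 ± 1.87 FPKM in wild type (SD, n = 3 each), Chrna1 averaged 0.370 ± 0.152 FPKM in PALMD+/- and 0.563 ± 0.0947 FPKM in wild type, and Chrng had a single read in all, in PALMD+/- replicate 2. Musk, the kinase that clusters this receptor, had 18, 23 and 7 reads in PALMD+/- replicates 1 to 3, against 11, 2 and 9 reads in wild type replicates 1 to 3. Of the cardiac transcription factors, Gata6 averaged 23.7 ± 9.58 FPKM in PALMD+/- and 30.5 ± 1.63 FPKM in wild type. Mef2a averaged 11.4 ± 2.38 FPKM in PALMD+/- and 9.98 ± 0.754 FPKM in wild type, and Mef2c 6.70 ± 2.12 FPKM in PALMD+/- and 6.31 ± 1.80 FPKM in wild type. The groups overlapped for each of these genes.

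**Figure D4:**
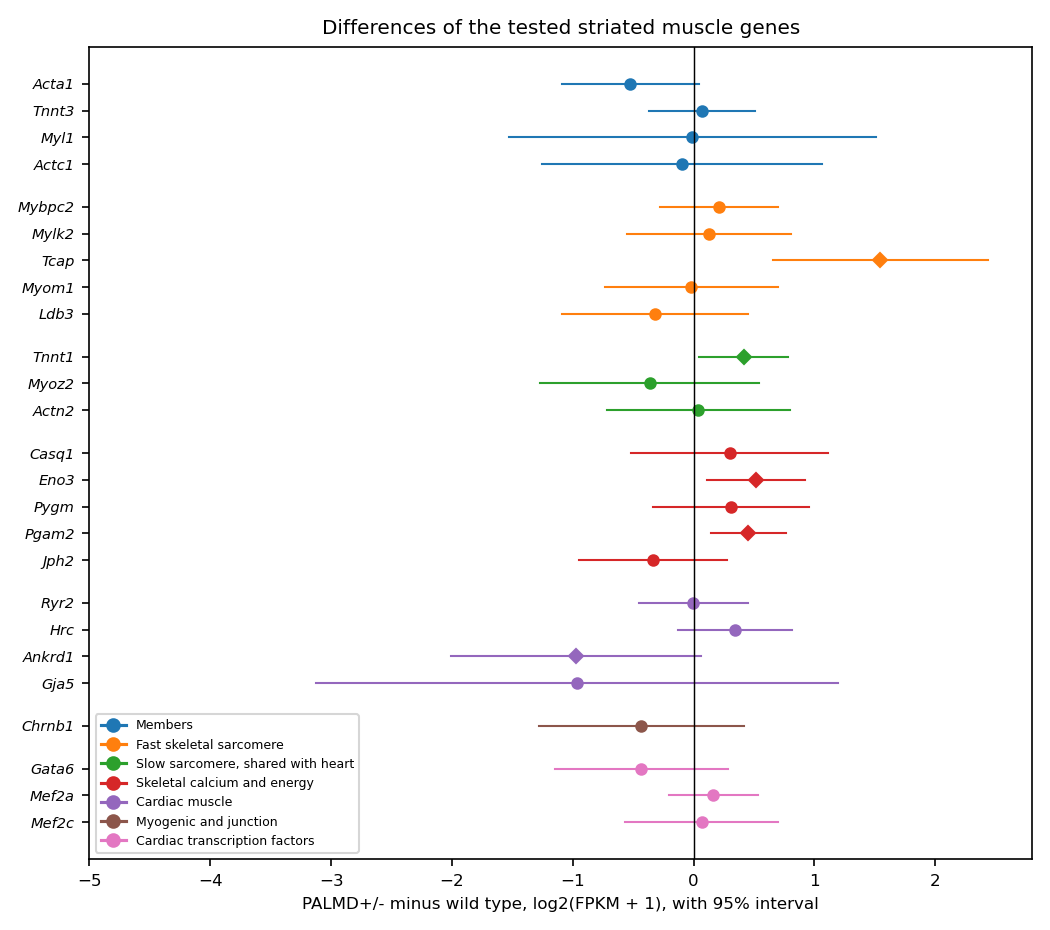
Difference of PALMD+/- minus wild type on the log2(FPKM + 1) scale, with its 95% interval from limma, for the 4 tested members (blue, top) and the 21 tested genes of the other striated lists. Diamonds mark genes whose groups did not overlap, of which Tcap at 1.55 lies farthest from 0, and the 4 members' intervals all include 0.

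Over the 6 libraries, 10 of the 11450 genes compared had a Pearson r over 0.95 with the mean log2 level of the skeletal members. Among the skeletal members Myl1 varied most. For the cardiac members there were 11, and Actc1 varied most among the cardiac members. The likeness is a description over 6 points that share libraries. How many genes would reach such an r without any relation to the members was not worked out. The genes most like the mean log2 level of the skeletal members, among 11450 tested genes that were in no list and not predicted genes, were Baiap2 (Pearson r = 0.986), Rilp (0.975), Dnpep (0.970), Mcf2l (0.961) and Cmss1 (0.961). Those most like the cardiac members were C1qc (0.977), Ints13 (0.977), Mvp (0.969), Thpo (0.965) and Zfp870 (0.964).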

How the data were processed

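RNA of aorta for 6 libraries (3 PALMD+/-, 3 wild type) was extracted with Trizol, selected on poly-T beads and primed with random hexamers, per the labels' protocols, with a kit not described as keeping strand. The deposited values are FPKM, calculated by the authors on GRCm38, with TopHat2, HISAT2 2.1.0 and Bowtie2 2.2.3 named in the submitters' processing notes. The annotation, the counting tool and the choice of reads or fragments were not given in the sources used here. Groups and replicate numbers come from the sample titles, while column headers in the files number the PALMD+/- libraries differently.

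Of 29752 gene identifiers, 29687 were found in GENCODE M21. FPKM multiplied by exon-union length was divided by a step inferred for each library and taken as 1 read. This gave whole reads, within 0.01 reads, for 95.1% to 95.6% of genes with under 20 reads in a library. Reads of named genes are given only where they were whole within 0.05 reads in all 6 libraries. No 2 libraries held the same values. A count test was not used as the main test. The tests were limma 3.58.1 (R 4.3.3) with a mean-variance trend on log2(FPKM + 1), and exact two-sided permutation tests. The limma procedure was tested on simulated data. Python 3.11.15, numpy 2.4.6, pandas 2.3.3 and matplotlib 3.10.9 were used. Reads are not given for Myh6, whose values were not whole multiples of a read at the GENCODE length.

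The members and lists were chosen with earlier results of these data known. The naming rule took all members, up to 4 genes of each list with the highest mean and up to 2 with the smallest p, the markers of skeletal and heart muscle, Acta2, Palmd, and the 5 genes most like the skeletal or cardiac members. For the lists of other cell types, sums are given in place of most named genes. Alternatives were other pseudocounts, filters and scaling, a replicate block, robust variance, limma voom on recovered reads, and leaving out each library.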

Additional observations from a re-analysis of the deposited data

How the results depend on the processing

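No member passed the threshold under any of the 14 alternatives, but 6 members were tested only under looser filters. Ckm, Tnnt2 and Myh6 were tested with at least 0.1 FPKM in 3 libraries and with no filter. Myh4, Myh1 and Myl7 were tested only with no filter. The member directions turned in 14 of 119 comparisons, in 6 members. Leaving out each library in turn gave log2 differences from -0.14 to 0.12 for Ckm, -0.10 to 0.24 for Tnnt3, -0.76 to 0.42 for Myl1, -0.52 to 0.33 for Actc1, -0.11 to 0.042 for Tnnt2 and -0.085 to 0.044 for Myl7. The Myl7 difference was -0.11 with a pseudocount of 0.1 and -0.0041 with 0.5. Among all genes, 0 passed with all libraries and 0 to 1 with a library left out (1 without PALMD+/- replicate 1 or 3 or wild type replicate 1 or 2), while 432 (without wild type replicate 3), 451 (without wild type replicate 2) to 1762 (without PALMD+/- replicate 2) were under an unadjusted p of 0.05. There were 820 with all libraries, 827 with limma voom, where 0 passed, and 1360 with no filter. The number of members whose groups did not overlap lay between 0 and 3 with a library left out. It was 3 without PALMD+/- replicate 3 (Acta1, Tnnt3 and Myh4, against 17.2% of all genes) and 3 without wild type replicate 3 (Acta1, Myh1 and Tnnt2, against 16.1%). For the tested striated list genes it was 5 to 10, with 10 of 21 without PALMD+/- replicate 2, against 33.1% of all tested genes. The cause of these changes was not tested. The difference of the summed skeletal levels (0.398 FPKM with all libraries) ran from -2.13 to 1.74 FPKM, and of the cardiac levels (-0.674 FPKM) from -3.83 to 2.22 FPKM. The correlation of deviations between libraries of the same replicate number was 0.508 for number 1, -0.0877 for number 2 and -0.342 for number 3. It was 0.551 between PALMD+/- replicate 2 and wild type replicate 3. Deviations from a mean of 3 libraries depend on each other, so these values cannot show whether the samples were paired. With the replicate block 0 genes and 0 members passed, and 738 genes were under an unadjusted p of 0.05. Depth limits Myh4, Myl7 and Myh1, which rest on a few reads per library, and 3 libraries a group limit the rest.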

Other observations

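Some developmental regulators shared between heart and vessel wall were high in a single library. Hand2 had 0.303, 7.78 and 0.279 FPKM in PALMD+/- replicates 1 to 3, against 0.256, 0.162 and 0.590 FPKM in wild type replicates 1 to 3. Tbx20 had 51, 208 and 23 reads in PALMD+/- replicates 1 to 3, against 60, 42 and 27 reads in wild type replicates 1 to 3. PALMD+/- replicate 2 was the highest library for both, and Tbx20 was chosen after its values were seen.

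Neb, the giant thin filament protein nebulin, had 40, 41 and 33 reads in PALMD+/- replicates 1 to 3, against 85, 59 and 46 reads in wild type replicates 1 to 3. It was below in every PALMD+/- library, the opposite of Mylpf, and was chosen after its values were seen. Of the 69 striated list genes above 0 in any library, the groups did not overlap for 7 on the higher and 2 on the lower side, 13.0% in all, against 10.1% of all genes above 0.

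Tagln, a smooth muscle gene usually high in the aorta, was listed at only 2.12 to 4.29 FPKM, and 67.9% of its exon bases overlap exons of other genes.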
